A study of Mus musculus with 3 samples.

Results

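Embryonic macrophages are the tissue-resident phagocytes found in and around the E10.5 mouse otic vesicle, the epithelial sac that forms the inner ear. They were selected on measured transcripts: a barcode counted as a macrophage where at least 3 of Csf1r, C1qa, C1qb, C1qc, Fcer1g and Tyrobp had at least 1 unique molecular identifier (UMI, 1 captured transcript) and where the epithelial gene Epcam had 0. Only barcodes in which 1000 or more genes were detected and mitochondrial UMIs did not exceed 10% were considered. The rule found 238 macrophages among 26130 such barcodes, of which 77 were in CD replicate 1, 74 in WT replicate 1 and 87 in WT replicate 2. CD replicate 1 is a library of otic vesicles heterozygous for a Sox9 allele with the Y440X change (genotype Sox9Y440X/+), and both WT libraries are wild type. All 3 are single-cell RNA libraries of pooled, enzymatically dissociated otic vesicles of that age. The study concerns how SOX9, Wnt signals and SOX10 shape the otocyst, and the macrophages came along with the dissected tissue. Only 1 library carries the Sox9 allele, so its genotype cannot be told apart from its pool, and the labels do not state whether each WT pool was a litter of its own. The p-values thus reflect how far these few libraries scatter, mostly as pooled over genes, and that scatter may be technical.

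The first macrophages of the mouse embryo come from yolk sac progenitors, which pass through a stage with Kit, Myb and the granule protein genes Mpo and Prtn3 before they acquire Csf1r, Cx3cr1, Adgre1 and Mrc1. CSF1R is the receptor for the growth factors CSF1 and IL-34, and the transcription factor PU.1, the product of Spi1, controls many macrophage genes. Mature tissue macrophages engulf dying cells, degrade them in lysosomes, sense damage through receptors such as CD14, and answer it with cytokines and chemokines such as TNF, CCL2, CCL3 and CCL4.

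The macrophages were deeply sampled relative to the other cells. Their median depth was 33664 UMIs per cell in CD replicate 1, 31704.5 in WT replicate 1 and 28834 in WT replicate 2, while the median over all kept barcodes was 18652.5, 20418.5 and 15508.5 UMIs. The median mitochondrial share of macrophage UMIs was 4.10%, 2.95% and 3.56% in the same order. Scrublet called 4, 5 and 5 of the macrophages doublets. At least 3 defining markers of otic epithelium, mesenchyme, neurons or endothelium were held by 11, 7 and 23 of the macrophages. The libraries shared up to 55 barcode sequences between any pair, and 0 of these were macrophages in both libraries. Below, a level (CPM) is the number of UMIs of a gene per 1000000 UMIs, summed over the macrophages of a library, after scaling of the library totals. A single macrophage sum held 2359182 to 2818495 UMIs, so that 3 UMIs correspond to 1.05 CPM in the CD macrophages and to 1.28 and 1.21 CPM in those of WT replicates 1 and 2.

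Macrophages made up 0.901% of the kept cells of CD replicate 1 (95% exact binomial interval 0.712 to 1.12%, counting error only). Their WT shares were 1.13% in replicate 1 (0.886 to 1.41%) and 0.790% in replicate 2 (0.633 to 0.973%), which average 0.958% with an SD of 0.239 (n = 2). The CD share lay between the WT shares, and the difference from the WT mean, -0.0577 percentage points, was smaller than the gap between the WT libraries. A share of this kind can also move with the dissection of the surrounding tissue.

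Most of the cells met the rule well inside its threshold. All 6 genes had a UMI in 67 of 77 macrophages of CD replicate 1, 60 of 74 in WT replicate 1 and 59 of 87 in WT replicate 2, or 78.2% of the 238. Just inside, 5, 11 and 14 cells had 3 of the genes; just outside, 10, 7 and 21 Epcam-negative cells had 2. The cells on each side of that line differed in other blood-cell genes. Spi1 was found in all 5, 11 and 14 cells just inside, against 4, 3 and 4 of the cells just outside, and Ptprc, which encodes the pan-leukocyte antigen CD45, in 5, 9 and 10 against 1, 3 and 4. These counts describe the rule and carry no test.

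The genes of the rule gave the following levels, as a description with no test. Csf1r had 254 CPM in CD macrophages, against 288 and 273 CPM in WT replicates 1 and 2. C1qa, C1qb and C1qc encode the chains of C1q, the recognition molecule of the classical complement pathway. C1qa had 340 CPM in CD, against 439 and 547 CPM in WT; C1qb had 1195 CPM, against 1272 and 1350 CPM. C1qc had 493 CPM in CD, against 600 and 652 CPM in WT. Fcer1g and Tyrobp encode the ITAM adaptors FcRγ and DAP12, through which activating receptors signal. Fcer1g had 1038 CPM in CD, against 1269 and 1249 CPM in WT, and Tyrobp had 998 CPM, against 1275 and 1405 CPM. Each of the 6 was lower in CD replicate 1 than in both WT libraries. In the other kept cells, Csf1r stood at 1.47 CPM in CD, against 1.17 and 1.83 CPM in WT.

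The proximal promoters of 4 genes that the next results turn on are shown because each holds the 8-letter PU.1-type sequence GAGGAAGT within 250 bases upstream of its start. The sequences are from RefSeq on GRCm38.p6, a different build from the mm39 of the counts. They are printed 5′ to 3′ on the strand of the gene, and capitals mark the match on either strand. C1qc and Pf4 stand for the C1q-positive macrophages, Prtn3 and Mpo for the granule genes.
C1qc, chr4:136893045-136893164, minus strand: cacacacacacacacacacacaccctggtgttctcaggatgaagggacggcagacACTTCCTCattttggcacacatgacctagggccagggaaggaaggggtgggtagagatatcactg
Pf4, chr5:90772315-90772434, plus strand: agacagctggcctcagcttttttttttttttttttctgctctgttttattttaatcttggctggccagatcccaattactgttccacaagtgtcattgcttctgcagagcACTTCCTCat
Prtn3, chr10:79879517-79879636, plus strand: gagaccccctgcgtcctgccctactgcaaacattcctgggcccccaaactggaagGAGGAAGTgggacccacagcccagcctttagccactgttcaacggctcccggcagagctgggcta
Mpo, chr11:87793534-87793653, plus strand: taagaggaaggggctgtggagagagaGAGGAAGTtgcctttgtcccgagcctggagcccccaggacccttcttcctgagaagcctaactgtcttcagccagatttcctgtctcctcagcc

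In C1qc the match began 195 bases upstream of the start and in Pf4 10 bases upstream, both as the reverse complement. In Prtn3 it began 95 bases and in Mpo 224 bases upstream, both as written. The sequence was found in 802 of 32851 such windows of the whole table, or 2.44%. Among the matched genes it was in 1 of 3 rule genes, 1 of 18 core maturation genes, 3 of 12 yolk sac progenitor genes and 0 of 12 myeloid transcription factor genes. A match describes letters and is no binding site, and the 4 promoters were picked for holding it.

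The label of macrophages was checked against genes outside the rule, set against the other cells and against 637 endothelial cells (194, 213 and 230). Because the cells were selected on genes of the same contrast, these values are a description. Of 17413 genes compared with the other cells, 4225 (24.3%) were called higher and 5915 (34.0%) lower by edgeR at an adjusted p of 0.05. Without library scaling that split was 3241 higher and 7535 lower. Against endothelium, 3317 (29.0%) of 11423 were higher and 3299 (28.9%) lower, and 2777 and 3976 without scaling. The core maturation list had 21 of 22 compared genes higher than in the other cells, with a median log2 fold change of 7.63. The median over all genes was -0.33. Of the 16 myeloid transcription factors, 15 were higher.

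Several hematopoietic genes outside the rule led the contrast with the other cells. Cybb, the catalytic subunit of the phagocyte NADPH oxidase, had 102 CPM in CD macrophages and 102 and 101 CPM in WT, against 0.248, 0.524 and 0.36 CPM in the other cells of the same libraries (log2 fold change 8.35). Ly86, the partner of the receptor RP105, had 239, 273 and 189 CPM in macrophages (log2 fold change 7.98), and Rac2, the blood-cell Rac GTPase, had 324, 398 and 389 CPM (7.30). Was, the Wiskott-Aldrich actin regulator, had 81.2, 111 and 91.7 CPM (7.33). Pld4, an endolysosomal nuclease, led the contrast with endothelium, at 119, 115 and 149 CPM in macrophages and 0 in all 3 endothelial sums. Ighm, the immunoglobulin mu constant region, was also among the leading genes in both contrasts, with 132, 168 and 171 CPM in macrophages. Of the lymphoid markers, Cd3e and Rag1 were at 0, while Cd79a had 0.703, 0 and 0.402 CPM. The mast cell and lymphoid list summed to 3.51, 5.10 and 14.9 CPM. Of its 5 compared genes, 2 were higher than in the other cells and 0 lower. Ms4a6b and Ms4a6c were further leaders, and near-identical family members make the split of reads between them uncertain.

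**Figure D1:**
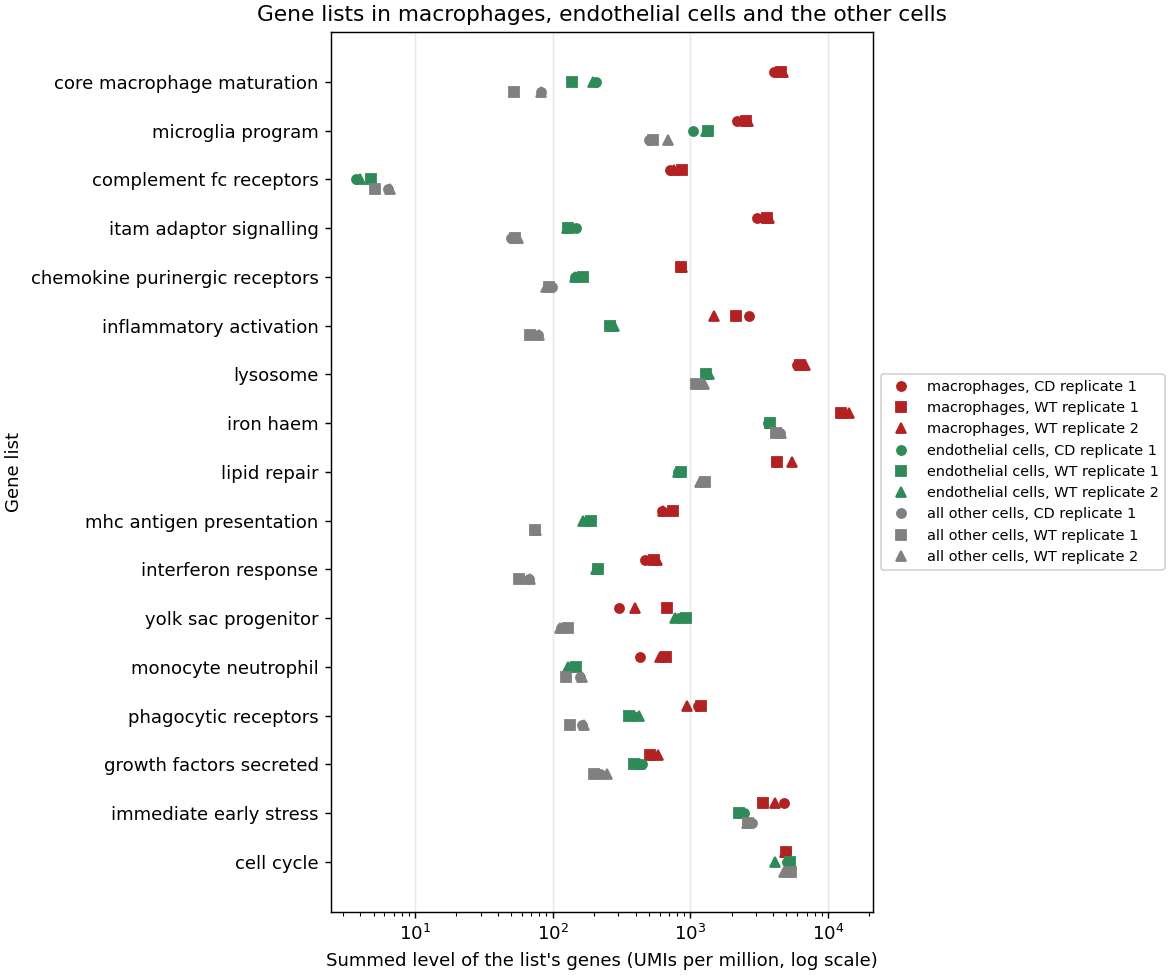
Summed level of each gene list (CPM, log scale) in macrophages, endothelial cells and all other cells of the 3 libraries; each point is 1 library. The core maturation list sums to 4068 to 4752 CPM in macrophages, while the cell cycle list, at 4880 to 4969 CPM, lies close to the other cells.

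The transcription factors of the lineage were present in all 3 libraries. Spi1 had 324 CPM in CD macrophages, against 430 and 380 CPM in WT. Irf8, which works with PU.1 in the macrophage lineage, had 148 CPM in CD, against 169 and 156 CPM in WT. Maf, a factor of mature macrophages, had 711 CPM in CD, against 622 and 586 CPM in WT, and Zeb2 had 403 CPM, against 388 and 333 CPM. Runx1, needed for the blood lineages, had 154 CPM in CD, between the 185 and 133 CPM of WT. In the CD against WT comparison, where edgeR called 0.157% of 10183 genes higher in CD and 0.452% lower, 0 of the 16 factors passed, with a median log2 fold change of -0.01.

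Maturation genes of tissue macrophages were present in most cells. Mrc1, the mannose receptor CD206, had 537 CPM in CD macrophages, against 619 and 368 CPM in WT. A Mrc1 UMI was found in 75.3% of CD macrophages thinned to 5000 UMIs (exact interval 64.2 to 84.4%), against 70.3% in WT replicate 1 and 53.1% in WT replicate 2 (41.7 to 64.3%). Without thinning the shares were 83.1%, 73.0% and 64.4%. In Epcam-positive cells with fewer than 3 rule genes, which should lack the gene, the thinned shares were 0.135%, 0.0838% and 0.307%. Epcam-positive cells with at least 3 rule genes were left out of this and every later Epcam-positive share, which lowers it. The CD level of Mrc1 lay between the WT levels. Its share of macrophages was highest in CD with and without thinning. Cx3cr1, the fractalkine receptor, had 481 CPM in CD, against 423 and 462 CPM in WT, and was in 87.0%, 81.1% and 74.1% of thinned macrophages (100%, 94.6% and 87.4% unthinned). Pf4, a chemokine of megakaryocytes and of early macrophages, had 474 CPM in CD, against 464 and 372 CPM in WT.

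Adgre1, which encodes F4/80, had 74.8 CPM in CD, against 74.0 and 87.3 CPM in WT, and was found in 69 of 77, 53 of 74 and 64 of 87 macrophages. Some other maturation genes were found in fewer cells. Lyve1, a hyaluronan receptor of perivascular macrophages, had 50.6 CPM in CD, between the 69.7 and 26.1 CPM of WT, and its UMIs came from 16, 19 and 11 cells. Timd4, the phosphatidylserine receptor TIM-4, had 3.16 CPM in CD, against 11.5 and 9.25 CPM in WT (edgeR log2 fold change -1.70, SE 0.63, adjusted p = 0.510), in 5, 12 and 3 cells. Markers of later resident macrophages were at the floor: Cd163 had 0 CPM in CD, against 0.425 and 0.402 CPM in WT, and Cbr2 was at 0 in all 3. In CD against WT, 1 of the 21 tested maturation genes rose and 1 fell, with a median of -0.12; the genes were Cd14 and Lyz2. Over the 23 maturation genes, the summed level was 4068 CPM in CD, against 4560 and 4752 CPM in WT.

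**Figure D2:**
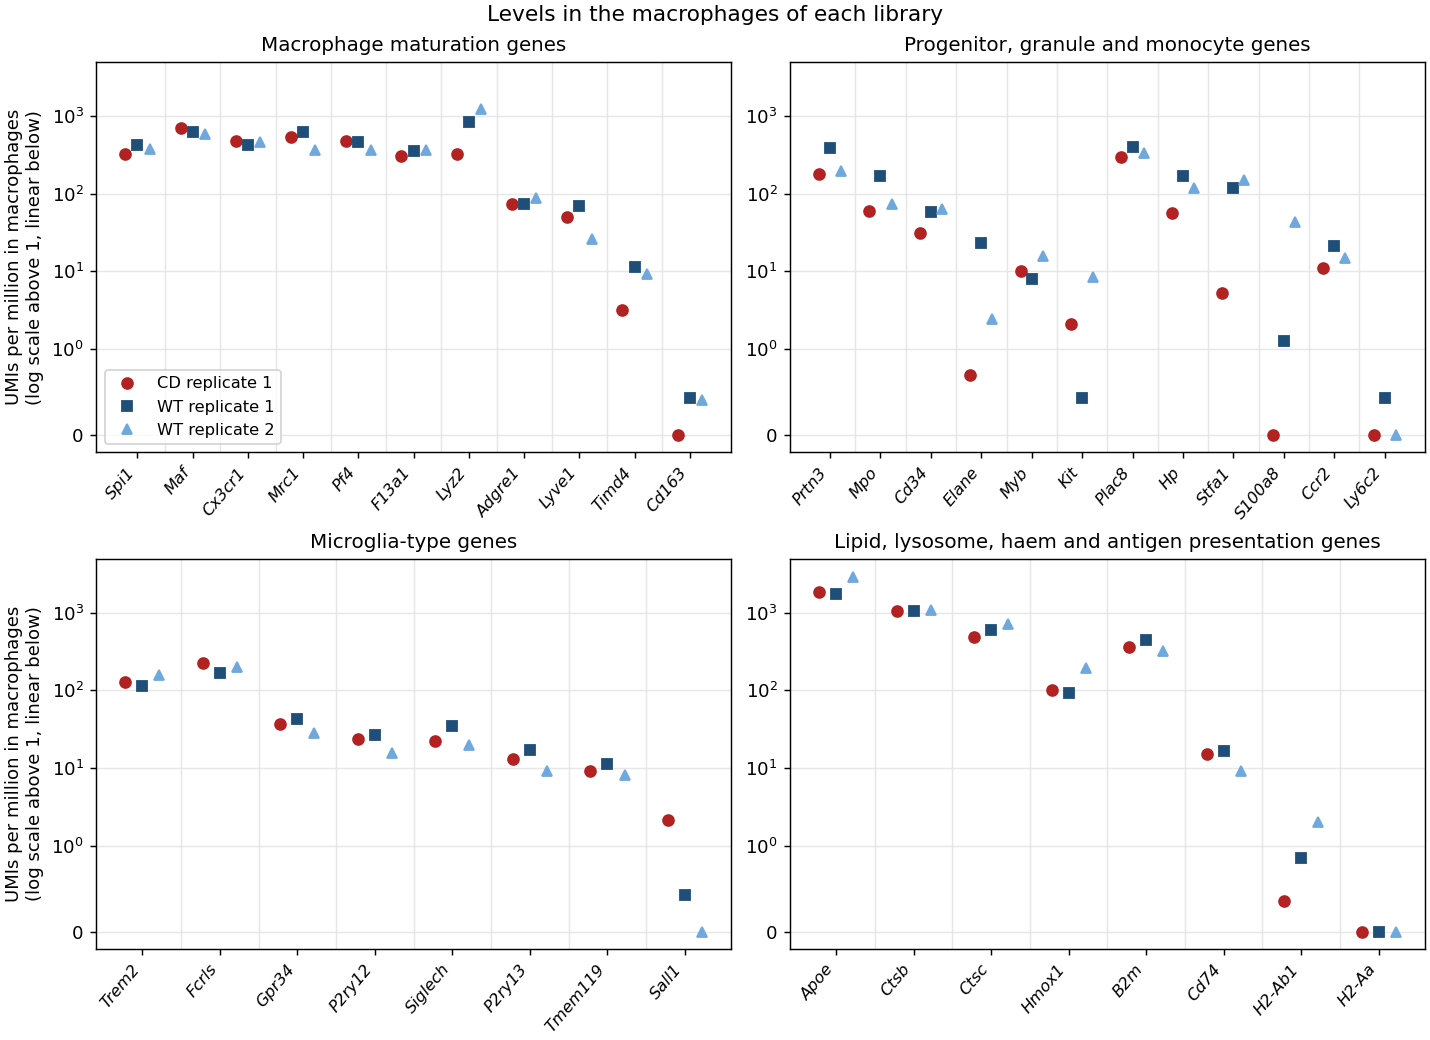
Level of single genes (CPM, log scale above 1 and linear below) in the macrophages of CD replicate 1 (red circles), WT replicate 1 (dark squares) and WT replicate 2 (light triangles). Spi1, Maf, Cx3cr1 and F13a1 lie within a narrow band, whereas Lyz2, Stfa1, Hp and Cd34 lie lower in CD than in both WT libraries.

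Genes known from microglia, the macrophages of the brain, fell into a group at high and a group at low level. Trem2, a lipid-sensing receptor that signals through DAP12, had 127 CPM in CD macrophages, against 115 and 156 CPM in WT. Fcrls had 225 CPM in CD, against 169 and 202 CPM in WT, and Cst3, which encodes the protease inhibitor cystatin C, had 1075 CPM, against 1439 and 1473 CPM. Of the genes that mark adult microglia, P2ry12, an ADP receptor, had 23.9 CPM in CD, against 26.4 and 15.7 CPM in WT. Siglech had 22.1 CPM in CD, against 34.4 and 19.7 CPM in WT. Tmem119 had 9.13 CPM in CD, against 11.1 and 8.05 CPM in WT, and its 10.0, 5.77 and 11.5 CPM in the other cells were of the same order. Sall1, a factor of mature microglia, had 2.11, 0.425 and 0 CPM in macrophages, below the 11.9, 12.4 and 11.7 CPM of the other cells. In CD against WT macrophages, 0 of the 17 tested genes of the list were higher and 1 lower, with a median of -0.10. The 1 was Sparc, a matrix glycoprotein that endothelium and mesenchyme also make. It had 14.8 CPM in CD, against 47.2 and 50.7 CPM in WT, where a single cell held 67.6% of the UMIs in WT replicate 1 and 44.4% in WT replicate 2.

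A minority of the cells selected as macrophages had no C1q transcript at all. No UMI of C1qa, C1qb or C1qc was found in 5 of 77 cells of CD replicate 1, 11 of 74 in WT replicate 1 and 11 of 87 in WT replicate 2 (6.49%, 14.9% and 12.6%), and all 27 of these entered through Csf1r, Fcer1g and Tyrobp together. The cells without C1q had median depths of 44210, 34606 and 27081 UMIs, against 33022, 31555 and 28881.5 UMIs in those with it, so that they were the shallower ones in WT replicate 2 and the deeper ones in the other libraries. Few cells lay between, since 0, 2 and 7 of the cells with C1q had 1 to 3 C1q UMIs and the median was 82, 82 and 83.5. Scrublet called 0 of the 27 doublets.

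The cells without C1q differed from the rest in granule protein genes. Mpo, myeloperoxidase, had 477, 930 and 446 CPM in cells without C1q of CD replicate 1, WT replicate 1 and WT replicate 2, against 24.0, 10.8 and 23.1 in cells with C1q. Prtn3, proteinase 3, had 893, 1815 and 716, against 119, 82.7 and 125. Cd34, a surface protein of progenitors and endothelium, had 160, 153 and 206, against 20.5, 38.5 and 44.5. All 3 genes were higher in the cells without C1q in every library. Maturation genes of the same cells were lower by different amounts.

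Mrc1 was found in 1 of 5, 0 of 11 and 0 of 11 cells without C1q, against 63 of 72, 54 of 63 and 56 of 76 cells with it. Pf4 had 0, 2.42 and 3.43 CPM in cells without C1q, against 522, 561 and 411 in cells with it. Cx3cr1 was found in 5 of 5, 7 of 11 and 6 of 11 cells without C1q, and had 260, 77.5 and 110 CPM, against 506, 495 and 497 in cells with it. F13a1, a transglutaminase of coagulation and of macrophages, was found in 2, 7 and 9 of the cells without C1q, and Cd68, a lysosomal glycoprotein of macrophages, in 4, 6 and 7 of them. Maf had 143, 26.7 and 37.7 CPM, against 769, 746 and 643. Apoe, the lipid carrier apolipoprotein E, had 52.0, 128 and 490, against 2041, 2094 and 3159. By contrast, Spi1 had 364, 470 and 367 in cells without C1q and 324, 420 and 373 in cells with it. The proliferation marker Mki67 had 394, 339 and 192, against 390, 384 and 355. Stab1 had 0, 2.42 and 0 CPM in cells without C1q, against 163, 173 and 196 in cells with it. The name macrophage rests on the rule for these 27 cells. Their Mpo and Prtn3 were high, while Mrc1, Pf4 and Stab1 were low or absent. Since C1q is part of the rule and of this split, the values are a description, and the 5 cells of CD replicate 1 carry wide counting error.

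**Figure D3:**
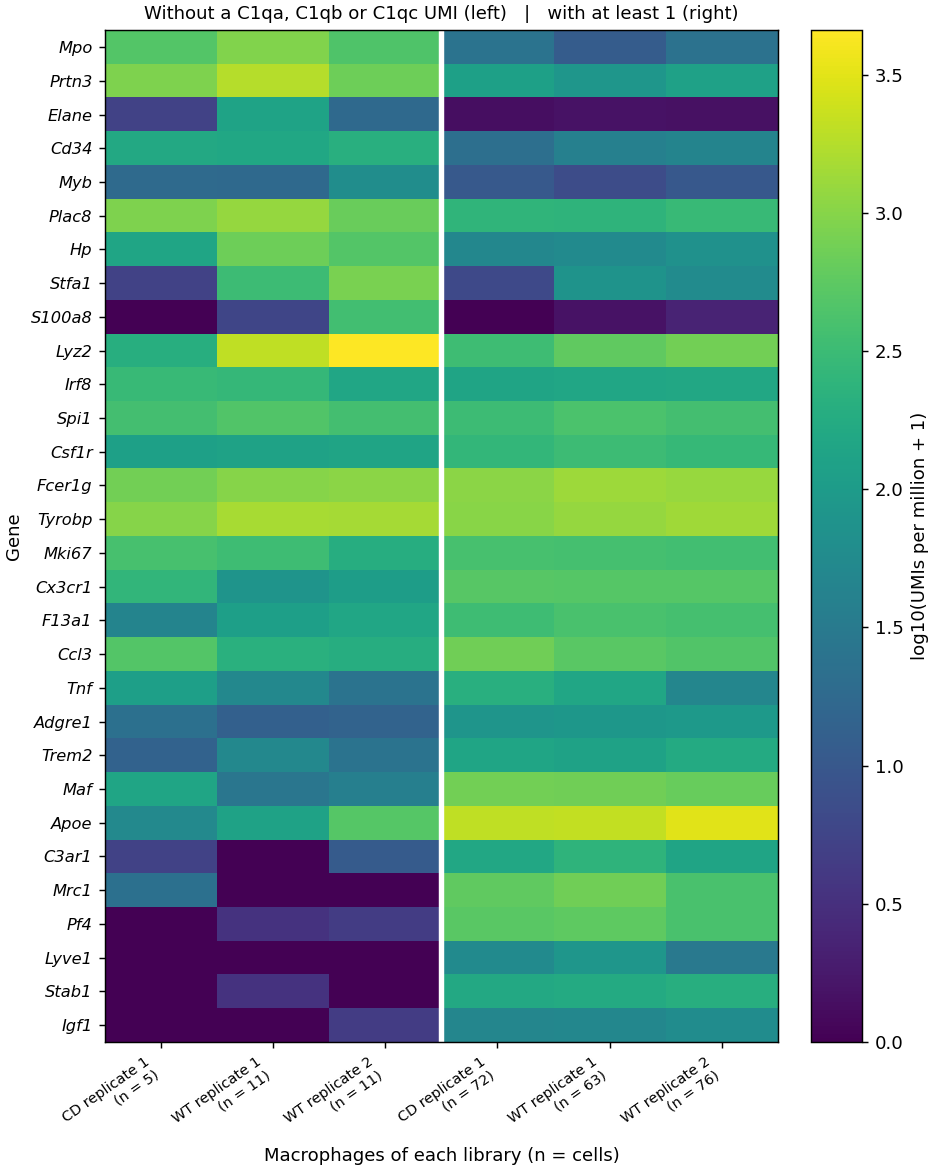
Level of each gene, as log10 of CPM plus 1 (colour), in cells selected as macrophages, without any C1q UMI (left, 5, 11 and 11 cells) and with at least 1 (right, 72, 63 and 76 cells) of each library. Mpo, Prtn3 and Cd34 are bright on the left, Mrc1, Pf4, Maf and Apoe on the right, and Spi1 on both sides.

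How often single cells held both kinds of gene depended on the gene and on the depth. Of the 238 macrophages, 52 had a Mpo UMI, 174 a Mrc1 UMI, 12 both and 24 neither, so that the 12 were 23.1% of the Mpo-positive and 6.90% of the Mrc1-positive cells. At full depth, Prtn3 was found in 39 of 77, 35 of 74 and 39 of 87 macrophages, and 27, 16 and 13 of these held Mrc1 as well. After thinning to 5000 UMIs, 20 of 77 CD macrophages held Prtn3, 58 Mrc1 and 7 both. In WT replicate 1 the counts were 23, 52 and 5 of 74, and in WT replicate 2 they were 25, 43 and 3 of 81. Prtn3 was found in 26.0%, 31.1% and 30.9% of thinned macrophages, against 3.73%, 3.27% and 3.78% of Epcam-positive cells.

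Progenitor genes upstream of the granule stage were low. Kit, the stem cell factor receptor, had 2.11 CPM in CD macrophages, against 0.425 and 8.45 CPM in WT, below the 17.2, 19.8 and 15.1 CPM of the other cells. Myb, which definitive blood progenitors need and yolk sac macrophages do not, had 10.2 CPM in CD, against 8.08 and 15.7 CPM in WT. Gata1 was at 0 in CD and WT replicate 1 and at 1.61 CPM in WT replicate 2. Genes of monocytes were at very different levels. Ly6c2, a surface protein of circulating monocytes, had 1 UMI in all 3 libraries, and the chemokine receptor gene Ccr2 had 10.9 CPM in CD, against 21.3 and 14.9 CPM in WT. Plac8 had 301 CPM in CD, against 406 and 340 CPM in WT, and was found in 66.2%, 67.6% and 66.7% of macrophages. The monocyte and neutrophil list summed to 432.9 CPM in CD, against 666.2 and 606.2 CPM in WT, and 8 of its 9 compared genes were higher than in the other cells (median log2 fold change 6.02). The neutrophil genes Ly6g, Cd177 and Retnlg were at 0.

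Genes for uptake and degradation were expressed at high level throughout. Ctsb, cathepsin B, had 1058 CPM in CD macrophages, against 1068 and 1104 CPM in WT, and Lamp1, a lysosomal membrane protein, had 482 CPM, against 517 and 487 CPM. Ctsc, the cathepsin that activates granule proteases, had 489 CPM in CD, against 597 and 727 CPM in WT. All 22 lysosomal genes were higher in macrophages than in the other cells and than in endothelium. In CD against WT, 0 of 22 passed (median -0.07). Gas6, the ligand that bridges dying cells to the receptor MERTK, had 131 CPM in CD, against 131 and 90.9 CPM in WT, and Mertk had 19.7 CPM, against 23.8 and 22.5 CPM. Stab1, a scavenger receptor, had 148 CPM in CD, against 143 and 177 CPM in WT. The scavenger receptor genes Marco and Stab2 and the complement receptor gene Vsig4 each had at most 0.402 CPM in any library. Of 16 tested phagocytic receptor genes, 1 rose in CD, again Cd14, and 0 fell (median 0.03).

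Lipid, iron and receptor genes lay mostly between or near the WT levels. Apoe had 1860 CPM in CD macrophages, against 1755 and 2914 CPM in WT. Lpl, lipoprotein lipase, had 350 CPM in CD, between the 409 and 266 CPM of WT. Hmox1, heme oxygenase, had 102 CPM in CD, against 92.3 and 195 CPM in WT, where 1 cell held 57.6% of the UMIs of WT replicate 2. Slc40a1, the iron exporter ferroportin, had 57.6 CPM in CD, against 62.5 and 63.6 CPM. Of the Fc receptors, Fcgr3 had 246 CPM in CD, against 291 and 311 CPM in WT, and Fcgr1 had 124 CPM, against 133 and 154 CPM; their related sequences make the split of reads uncertain. C3ar1, the receptor for the complement fragment C3a, had 144 CPM in CD, between the 198 and 123 CPM of WT. In CD against WT, 1 of 13 lipid and repair genes fell (Lgals3), while 0 of 10 iron and heme genes, 0 of 9 complement and Fc receptor genes, 0 of 14 chemokine and purinergic receptor genes and 0 of 16 ITAM signalling genes passed.

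Antigen presentation genes were mostly those of class I, with some genes of class II processing. B2m, the class I light chain, had 360 CPM in CD macrophages, against 445 and 325 CPM in WT. H2-D1, a class I heavy chain whose paralogs share sequence, had 131 CPM, against 158 and 146 CPM. The class II genes H2-Aa and H2-Eb1 and their master regulator Ciita had 0 UMIs in all 3 macrophage sums, which allows up to 1.05, 1.28 and 1.21 CPM. H2-Ab1 had 0.351 CPM in CD, against 0.850 and 2.01 CPM in WT. Cd74, the invariant chain of class II, had 15.1 CPM in CD, against 16.6 and 9.25 CPM in WT, and was found in 28.6%, 27.0% and 18.4% of macrophages. H2-DMa, which helps to load class II, had 18 UMIs in CD, against 24 and 26 UMIs in WT, a level above the other cells by a log2 fold change of 2.19. In CD against WT, 0 of 8 tested presentation genes passed.

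Secreted growth factors included Tgfb1, with 171 CPM in CD macrophages, against 196 and 195 CPM in WT, and Igf1, with 42.5 CPM, against 40.0 and 54.7 CPM. Nrros, which anchors latent TGF-β on macrophages, had 153 CPM in CD, against 165 and 145 CPM in WT. Arg1 and Itgax, genes of wound-type macrophages and dendritic cells, had less than 1 CPM in each library. Of 11 growth factor genes tested in CD against WT, 0 passed.

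Across all genes, the CD and WT macrophages differed in few. Of 10183 genes tested by edgeR, 16 (0.157%) were higher in CD and 46 (0.452%) lower at an adjusted p of 0.05, with a median log2 fold change of -0.01 and 484 genes at an unadjusted p under 0.05. The test has 1 residual degree of freedom, that of the WT pair, and assumes that CD libraries would scatter as much as WT ones. The edgeR prior, which pools scatter over genes, had a median of 61.7 degrees of freedom. The p-value of a gene therefore measures its own WT scatter only in small part. DESeq2 called 0 genes higher and 3 lower: Lyz2, Stfa1 and Cdkn1c, the last of which lies outside the rule for named genes. Without the cells called doublets, 1 gene was higher (Cd14) and 3 were lower (Lyz2, Stfa1 and Mcemp1). Of the 62 called genes, 15 differed from WT by less than the gap between the WT libraries, and in 27 of the 46 lower ones a single cell held over 50% of the UMIs of a WT library.

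Of the 27 gene lists, inflammatory activation had the most genes higher in CD macrophages. Of 20 tested, 5 rose and 0 fell, where 0.157% of all tested genes rose. The median log2 fold change was 0.55, and 16 of the 20 were positive. Ccl3, the chemokine MIP-1α, had 709 CPM in CD, against 473 and 442 CPM in WT (edgeR log2 fold change 0.63, SE 0.16, adjusted p = 0.0302). Ccl4, the related chemokine MIP-1β, had 376 CPM in CD, against 245 and 232 CPM in WT (edgeR log2 fold change 0.66, SE 0.17, adjusted p = 0.0435). Both WT values lay close together for these genes, and the CD value lay above them.

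Nfkbiz, an atypical inhibitor of NF-κB that promotes a secondary set of its target genes, had 102 CPM in CD, against 57.4 and 37.8 CPM in WT (edgeR log2 fold change 1.10, SE 0.22, adjusted p = 0.00197). Tnf had 192 CPM in CD, against 129 and 45.9 CPM in WT (edgeR log2 fold change 1.14, SE 0.24, adjusted p = 0.00325). Ccl2, the monocyte-attracting chemokine MCP-1, had 144 CPM in CD, against 94.8 and 33.0 CPM in WT (edgeR log2 fold change 1.18, SE 0.25, adjusted p = 0.00358). For Tnf and Ccl2, WT replicate 1 exceeded WT replicate 2 by 2.81 and 2.87 times, more than CD exceeded WT replicate 1. Tnf was found in 44.2% of thinned CD macrophages (exact interval 32.8 to 55.9%), against 27.0% (17.4 to 38.6%) and 18.5% (10.8 to 28.7%) in WT, and unthinned in 68.8%, 60.8% and 43.7%. Its share in thinned Epcam-positive cells was at most 0.0449%.

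Further members of the list did not pass. Cxcl2 had 266 CPM in CD, against 273 and 132 CPM in WT, and Nfkbia, the NF-κB inhibitor IκBα, had 264 CPM, against 262 and 119 CPM. Icam1 had 136 CPM in CD, against 105 and 66.8 CPM in WT (edgeR log2 fold change 0.67, SE 0.21, adjusted p = 0.202). Il1b had 27.4 CPM in CD, between the 16.6 and 79.2 CPM of WT, and Cxcl10 had 82.9 CPM, between the 158 and 42.2 CPM of WT. Il6 and Nos2 were at 0 in all 3 libraries. Summed over the list, the level was 2674 CPM in CD, against 2138 and 1481 CPM in WT. Per cell, the median was 24.7 list UMIs per 10000 UMIs in CD, against 13.6 and 10.9 in WT, and the 90th percentile was 70.4, against 60.8 and 36.2. The ranges of single cells overlapped widely.

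The call of these genes depended on the settings. Of the 5 list members, 0 were called by DESeq2, 0 after removal of the called doublets, 0 where at least 4 rule genes were required and 4 without the cells that held markers of other classes. The fold changes moved little where the calls were lost: without doublets they were 0.63 for Ccl3, 0.67 for Ccl4, 1.12 for Tnf, 1.07 for Ccl2 and 1.05 for Nfkbiz on the log2 scale, and the median of the list was 0.63. Immediate early and stress genes, which dissociation of tissue can raise, moved in the same direction: their summed level was 4780 CPM in CD, against 3393 and 4096 CPM in WT. Of 18 tested, 1 rose and 0 fell, with a median of 0.31. It was Hsp90aa1, a heat shock chaperone, with 1864 CPM in CD, against 1065 and 1433 CPM in WT (edgeR log2 fold change 0.58, SE 0.15, adjusted p = 0.0375). Hspa1a, an inducible heat shock gene, had 39.4 CPM in CD, against 0.850 and 42.6 CPM in WT. The median mitochondrial share given above was also highest in CD. Between the WT libraries the order differed: replicate 2 had the higher stress sum and mitochondrial share. Its inflammatory sum was the lower one, 1481 against 2138 CPM. The part of dissociation in the higher inflammatory genes was not tested.

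**Figure D4:**
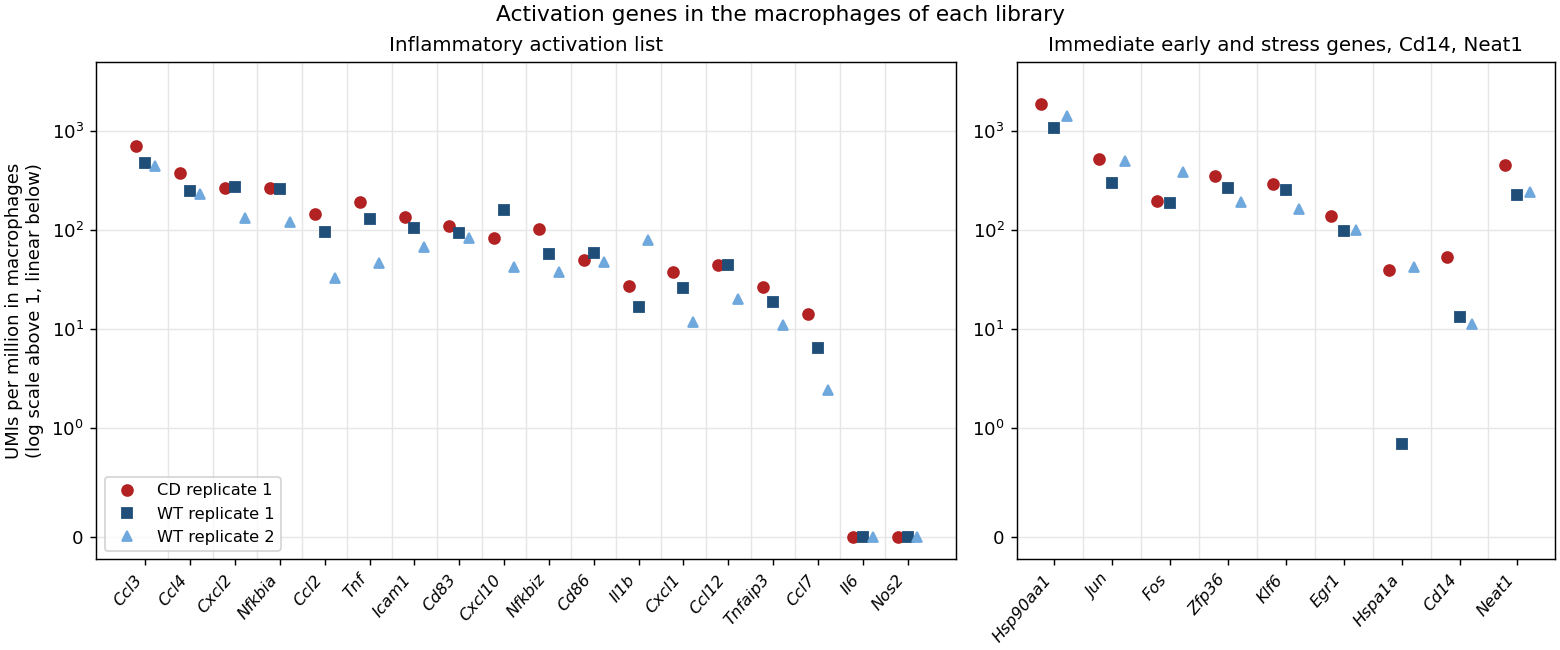
Level of inflammatory genes (left) and of immediate early and stress genes, Cd14 and Neat1 (right) in the macrophages of each library, in CPM (log scale above 1, linear below). Ccl3, Ccl4, Cd14 and Neat1 lie higher in CD than in 2 close WT values, while for Tnf and Ccl2 the WT libraries themselves lie far apart.

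Cd14, the co-receptor for lipopolysaccharide, rose the most among the named genes. It had 53.4 CPM in CD macrophages, against 13.2 and 11.3 CPM in WT (edgeR log2 fold change 2.13, SE 0.28, adjusted p = 5.1e-07), from 152 UMIs in CD and 31 and 28 UMIs in WT. Its UMIs came from 56 of 77 CD cells, against 23 of 74 and 22 of 87 WT cells, and the cell with most held 6.58% of them in CD. After thinning, 18.2% of CD macrophages had a UMI (exact interval 10.3 to 28.6%), against 6.76% (2.23 to 15.1%) and 8.64% (3.55 to 17.0%) in WT, with at most 0.112% in Epcam-positive cells. The thinned intervals overlapped, while the levels of the WT libraries differed by 1.17 times. Cd14 passed in 10 of the 11 tested settings, with a fold change between 2.01 and 2.24 on the log2 scale, and missed in DESeq2 (adjusted p = 0.301).

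Other genes that rose were of mixed kinds. Neat1, the long non-coding RNA that builds nuclear paraspeckles, had 454 CPM in CD, against 225 and 243 CPM in WT (edgeR log2 fold change 0.96, SE 0.17, adjusted p = 0.000164). Colec12, a scavenger receptor with a C-type lectin domain, had 51.6 CPM in CD, against 15.3 and 22.1 CPM in WT (edgeR log2 fold change 1.46, SE 0.27, adjusted p = 0.00038). Its level in the other cells, 32.1, 36.8 and 28.4 CPM, was of the same order. Hook2, a microtubule-linked adaptor, had 26.7 CPM in CD, against 7.23 and 5.63 CPM in WT (edgeR log2 fold change 2.05, SE 0.39, adjusted p = 0.000691), where a single CD cell held 25.0% of its UMIs. Tmem80 had 33.7 CPM in CD, against 16.6 and 13.7 CPM in WT (edgeR log2 fold change 1.16, SE 0.30, adjusted p = 0.0466). A single cell held 58.3% of its CD UMIs, and without the cells that held markers of other classes the log2 fold change was -0.38.

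Among the genes that fell, Lyz2, Stfa1, Hp, Mcemp1 and Lgals3 are known from monocytes, granulocytes or their precursors. Lyz2, lysozyme, had 323 CPM in CD macrophages, against 851 and 1225 CPM in WT (edgeR log2 fold change -1.68, SE 0.18, adjusted p = 5.43e-10). It was found in 76 of 77 CD cells, against 72 of 74 and 76 of 87 WT cells. Its reads may be shared with the near-identical Lyz1. The cell with most held at most 13.3% of the Lyz2 UMIs in any library. The 11 cells without C1q of each WT library held 853 of 2002 Lyz2 UMIs in replicate 1 and 1339 of 3045 in replicate 2. In CD, the 5 cells without C1q held 45 of 920.

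Stfa1, which encodes a stefin that inhibits cysteine proteases and has near-identical paralogs, had 5.27 CPM in CD, against 119 and 150 CPM in WT (edgeR log2 fold change -4.67, SE 0.32, adjusted p = 6.79e-18). A single cell held 45.2% of its UMIs in WT replicate 1 and 47.1% in WT replicate 2. It was found in 7 of 77 CD cells, against 13 of 74 and 17 of 87 WT cells. Stfa1 was the only one of the 35 named genes called in CD against WT that passed in all 11 tested settings.

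Hp, haptoglobin, had 56.2 CPM in CD, against 171 and 119 CPM in WT (edgeR log2 fold change -1.37, SE 0.22, adjusted p = 4.36e-05). Mcemp1, a membrane protein of mast cells and myeloid cells, had 4.22 CPM in CD, against 27.6 and 33.0 CPM in WT (edgeR log2 fold change -2.83, SE 0.40, adjusted p = 2.55e-06). Lgals3, galectin-3, had 24.6 CPM in CD, against 51.9 and 126 CPM in WT (edgeR log2 fold change -1.85, SE 0.30, adjusted p = 3.8e-05). The WT libraries differed in Lgals3 by 2.43 times, more than CD differed from WT replicate 1. Of the 8 tested monocyte and neutrophil genes, 0 rose and 3 fell, with a median of -0.52, where 0.452% of all tested genes fell. S100a8, a calcium-binding protein of neutrophils, had 0 UMIs in CD, against 1.28 and 43.4 CPM in WT, and 63.9% of those of WT replicate 2 were in 1 cell. The cells without C1q held 105 of the 108 S100a8 UMIs of WT replicate 2. S100a9, its partner, had 0 UMIs in CD replicate 1 and WT replicate 1, and its 18.1 CPM in WT replicate 2 came from 1 cell.

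Yolk sac progenitor genes also leaned lower in CD, which depended on the settings. Of 10 tested, 0 rose and 3 fell, with a median of -1.05, where 0.452% of all tested genes fell. DESeq2 called 0 of the list, as did edgeR without the called doublets. With at least 4 rule genes 0 were called and the median was -0.04. Without cells holding markers of another class 0 were called and the median was -0.51. Mpo had 60.4 CPM in CD, against 172 and 73.2 CPM in WT (edgeR log2 fold change -1.02, SE 0.26, adjusted p = 0.0350). The WT libraries differed by 2.35 times in Mpo, and its UMIs came from 11, 17 and 24 cells. Elane, neutrophil elastase, had 0.703 CPM in CD, against 23.4 and 2.41 CPM in WT (edgeR log2 fold change -4.09, SE 0.93, adjusted p = 0.0102), with 61.8% of the UMIs of WT replicate 1 in 1 cell. Cd34 had 31.6 CPM in CD, against 58.7 and 64.4 CPM in WT (edgeR log2 fold change -0.96, SE 0.25, adjusted p = 0.0466). It passed in 2 of the 11 tested settings. Without the cells that held markers of another class, its edgeR log2 fold change was -0.44 (adjusted p = 0.999). Endothelial cells of the same libraries had 543, 693 and 509 CPM of Cd34, and their part in its fall was not tested. Prtn3 had 181 CPM in CD, against 387 and 197 CPM in WT (edgeR log2 fold change -0.69, SE 0.21, adjusted p = 0.187).

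The share of cells without C1q was 6.49% in CD against 14.9% and 12.6% in WT. Its part in the values of the progenitor genes, Hp, Mcemp1, Stfa1 and S100a8 was not tested. Among the macrophages with at least 1 C1q UMI, a subset added after the data had been seen, 0 of the tested progenitor genes passed. Their median was -0.45, and Mpo had a log2 fold change of 0.44. Cd34 had an edgeR log2 fold change of -1.05 there (adjusted p = 0.111), against -0.96 over all macrophages. In the same subset 0 of 6 tested monocyte and neutrophil genes passed (median -0.13), Hp had an edgeR log2 fold change of -0.39 (adjusted p = 1.000) and Mcemp1 one of -1.50 (adjusted p = 0.638). Lyz2 was lower in CD within both kinds of cell. It had 195 CPM in CD cells without C1q, against 2067 and 4589 in WT, and 338 in CD cells with C1q, against 590 and 759 in WT.

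Of the 46 lower calls, 7 were members of the endothelial list, and 21 were higher in endothelial cells than in macrophages and in the other cells of every library. Emcn, endomucin, had 0 UMIs in CD macrophages, against 18.7 and 16.1 CPM in WT, at least 16.5-fold lower against a floor of 3 UMIs. Cldn5, an endothelial tight junction protein, had 0.351 CPM in CD, against 17.4 and 15.3 CPM in WT (edgeR log2 fold change -5.36, SE 0.81, adjusted p = 8.53e-06). Of the Emcn UMIs, 33 of 44 in WT replicate 1 and 36 of 40 in WT replicate 2 lay in 1 cell. Over the 12 endothelial markers the summed level was 81.5 CPM in CD, against 232.5 and 201.5 CPM in WT, and a single cell gave 5.60% of it in CD, against 38.2% and 56.1% in WT. Cdh5, Crip2, Ramp2, Flt1 and Ecscr, further endothelial genes, and the neuronal gene Stmn2 were the other genes of largest fall, at log2 fold changes between -4.43 and -2.77. Without the cells that held at least 3 markers of another class, 0 of the 4 endothelial genes still tested passed and the lower calls numbered 25. That filter removes cells on markers of the same endothelial list, so the loss of the endothelial calls was built into it.

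Transcripts of other tissues were found in the macrophage sums too. Oc90, the otoconial matrix protein of the otic epithelium, had 1.76 CPM in CD macrophages, against 5.53 and 29.8 CPM in WT, next to 37.0, 280 and 531 CPM in the other cells. The erythroid globin Hba-x had 187 CPM in CD, against 95.2 and 121 CPM in WT, next to 13665, 10649 and 7831 CPM in the other cells. Both followed the order of the libraries in the other cells, except that Hba-x in WT replicate 2 exceeded WT replicate 1. Of the 7 tested erythroid genes 2 rose and 0 fell, of the 5 otic genes 0 rose and 1 fell, and of the 8 neuronal genes 0 rose and 1 fell. Mesenchymal markers, of which 0 of 9 passed, summed to 154.6 CPM in CD, against 41.2 and 170.6 CPM in WT, and neuronal markers to 62.9 CPM, against 149.6 and 114.6 CPM.

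Among the proliferation and interferon genes, 0 passed in CD against WT macrophages. Mki67 had 386 CPM in CD macrophages, against 377 and 343 CPM in WT, and Top2a, the mitotic topoisomerase, had 399 CPM, against 392 and 446 CPM. Of 20 cell cycle genes, 0 passed in CD against WT, with a median of 0.06. Relative to the other cells, 11 of the 20 were higher and 2 lower in macrophages, with a median of 0.17. Mki67 was found in 64.9%, 64.9% and 58.0% of thinned macrophages, against 51.5%, 55.0% and 46.9% of Epcam-positive cells. Of 12 interferon-response genes, 0 passed in CD against WT (median -0.06). Ifitm3, an antiviral membrane protein, had 103 CPM in CD, against 145 and 202 CPM in WT (edgeR log2 fold change -0.75, SE 0.20, adjusted p = 0.0585). Ifit1, Ifit2 and Ifit3 had at most 2.13 CPM in any library.

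**Figure D5:**
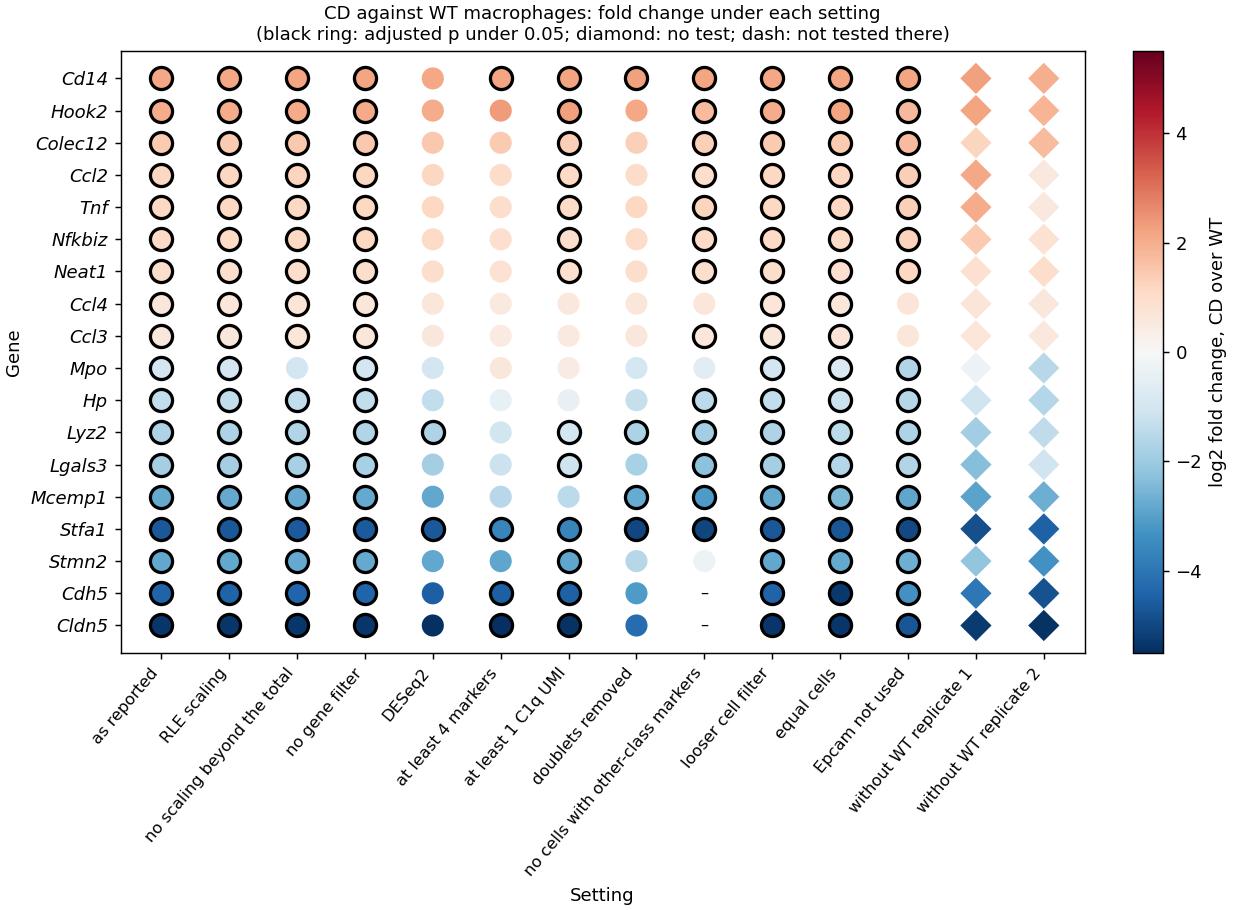
Log2 fold change of CD over WT macrophages (colour) for single genes (rows) under each setting (columns); a black ring marks an adjusted p under 0.05, a diamond a fold change without a test and a dash a gene not tested there. Cd14, Lyz2 and Stfa1 keep their direction in every column shown, and Mpo changes sign with at least 4 rule genes and with at least 1 C1q UMI.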

How the data were processed

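The submitters deposited, per the labels, 10x Chromium 3′ matrices of UMI counts per gene for each barcode, whole numbers that the authors did not normalize, made with Cell Ranger 6.0 and mm39 per the submitters' processing notes. Barcodes under 1000 genes or over 10% mitochondrial UMIs were left out, and macrophages were selected as described. Scrublet (scanpy 1.11.5) marked doublets, which were kept and removed as an alternative. Counts were summed per library and cell class and tested with edgeR 4.0.16 in R 4.3.3 (TMM, filterByExpr, quasi-likelihood, Benjamini-Hochberg at 0.05). CD was set against WT without covariates, and macrophages against other and against endothelial cells with the library as a block. The prior had a median of 61.7 degrees of freedom for CD against WT. SE is the log2 fold change over the square root of F. Shares were compared after thinning cells to 5000 UMIs, which left out 6 macrophages of WT replicate 2. Intervals are exact at 95% (Clopper-Pearson) and reflect counting error alone. A WT chi-square of 4 per degree of freedom over 10893 genes showed that the WT counts are not duplicates. Named genes are those past the threshold in the listed sets, and the largest changes clear of the WT gap with a mean of at least 10 CPM, without predicted, mitochondrial, ribosomal, sex-linked or globin genes; fixed list members are described by value, by level or known role, and some were picked after their values were seen. The edgeR step was tested on simulated data. Alternatives were other scalings, no low-count filter, DESeq2 1.42.0, other cell filters and rules (those on C1q and without Epcam added after the data had been seen), equal cell numbers and leaving out each WT library. The members, lists and tests were chosen with earlier results of these data known.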

Additional observations from a re-analysis of the deposited data

How the results depend on the processing

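No paired analysis was possible because the CD group has 1 library and shares only 1 replicate number with WT. Against 16 genes higher and 46 lower in CD macrophages, DESeq2 called 0 and 3, a rule of at least 4 genes 1 and 11, removal of doublets 1 and 3, and equal cell numbers 27 higher. Without cells holding markers of another class, 25 were lower. Macrophages against endothelium had 2199 lower genes in DESeq2, against 3299. The log2 fold change of Mpo reversed to 0.61 with at least 4 genes and 0.44 with at least 1 C1q UMI, and that of Tmem80 to -0.38 without cells holding other markers; the cause was not tested. Over 555 pairs of gene and setting in CD against WT, 441 kept their side of the threshold, 111 lost the call and 3 reversed. Changes of sign in genes called in neither setting were not counted as reversals. All 225 pairs against the other cells and 210 against endothelium kept direction and side of the threshold. Without either WT library there is no residual degree of freedom, so only fold changes were computed. The difference in the macrophage share ranged from -0.227 to 0.111 percentage points, within the WT spread. Leaving out a library gave 3567 to 3921 higher and 4394 to 5233 lower genes against the other cells, and 2825 to 2877 and 2816 to 3010 against endothelium. Genes under about 1 CPM lie at the level of 3 UMIs, and differences there were not detectable at this depth.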

Other observations

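Some cells carried the macrophage genes together with Epcam and were left out by the rule. At least 3 of the 6 genes and an Epcam UMI were found in 20 kept CD cells, and in 17 and 37 kept cells of WT replicates 1 and 2. Of these, 13, 10 and 19 had a single Epcam UMI, and 5, 6 and 14 had at least 5. Their median depth was 42574.5, 52665 and 31200 UMIs, and Scrublet called 5, 5 and 7 of them doublets. C1qb stood at 1124, 549 and 1054 CPM in them and Mrc1 at 852, 169 and 320, next to 2.46, 155 and 316 for Oc90. Their origin was not tested.

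The CSF1R ligand genes Csf1 and Il34 were low in the dissected tissue. Csf1, a ligand of CSF1R, had 5.27 CPM in CD macrophages, against 0 and 0.402 CPM in WT, and 4.75, 4.62 and 3.37 CPM in endothelial cells. In the other cells it had 2.06, 1.33 and 1.69 CPM. Il34, the other ligand, had 0 UMIs in the macrophages of all 3 libraries and at most 0.0655 CPM in the other cells.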
